A study of Mus musculus with 76 samples.

Results

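The 80 genes described here carry the names of cytosolic ribosomal proteins, 48 of the large (60S-type) and 32 of the small (40S-type) subunit, and were measured in single macrophages of the mouse atrioventricular (AV) node. They are every row among the 9235 genes of the deposited table whose symbol has the form Rpl or Rps with a number and at most a short suffix, together with Rplp0, Rplp1, Rplp2 and Rpsa. A few of them are paralogues, and 1, Rps4y2, is annotated as a pseudogene. The ribosomal S6 kinases were left out, and a ribosomal protein gene with no row in the table, such as Rps12, was not analysed here. Each of the 76 libraries is 1 cell sorted from the AV node of wild-type C57BL/6J mice, for which the labels name no treatment. The sort kept living cells high in CD45, CD11b and F4/80, low to intermediate in Ly6C and low in lineage markers. The labels give no age, animal or chip, so the cells form 1 sample, no group can be compared with another and no p-value is given. Values are counts per 1000000 (CPM).

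A ribosome joins a small subunit, which reads the messenger RNA, to a large subunit, which forms the peptide bonds. Each subunit takes up 1 copy of nearly every one of its proteins, apart from the stalk proteins P1 and P2. Transcripts of these genes usually start with a run of pyrimidines, the terminal oligopyrimidine motif, through which the mTORC1 kinase and the protein LARP1 control their translation. Ribosomal protein genes have also left very many processed pseudogenes, intronless copies of their messenger RNA, across mammalian genomes. Macrophages that make enzymes, complement and antigen-presenting molecules depend on this machinery, as other cells do.

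Features of sequence at the start and in the coding region are shown first, because many members have them and the rule that chose the members used neither. The first is a pyrimidine run around the annotated start of transcription. The 40 bases below span 20 on either side of the annotated start, with the longest run of C and T in capitals where it reached 7 bases, and were read from RefSeq on GRCm38.p6. Rpl7a, Rpl27a and Rps10 had some of the longest runs of their subunits, and Rpl4 and Rps3 were the most abundant members with a promoter in their subunits.
Rpl7a, chr2:26910787-26910826, plus strand: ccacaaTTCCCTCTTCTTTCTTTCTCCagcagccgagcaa
Rpl27a, chr7:109519175-109519214, plus strand: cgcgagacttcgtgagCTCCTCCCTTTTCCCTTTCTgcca
Rps10, chr17:27635225-27635264, minus strand: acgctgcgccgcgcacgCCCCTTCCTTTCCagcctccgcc
Rpl4, chr9:64173367-64173406, plus strand: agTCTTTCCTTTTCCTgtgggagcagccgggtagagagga
Rps3, chr7:99483690-99483729, minus strand: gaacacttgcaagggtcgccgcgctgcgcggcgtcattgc
The run was 21 bases in Rpl7a, 20 in Rpl27a, 13 in Rps10 and 14 in Rpl4, whereas the window of Rps3 held none longer than 3. The runs of Rpl7a, Rpl27a and Rps10 spanned the annotated start. That of Rpl4 lay wholly before it, from base -18 to base -5. RefSeq gave a promoter for 59 of the 80 members, and 36 of them (61.0%) held a run of at least 7 C or T within this window, searched on the strand of the gene. The same was true of 27.5% of 27025 genes with a promoter and of 28.2% of the 6224 such genes that are in the table. By subunit it was 23 of 36 large and 13 of 23 small members. The length of the run and the mean CPM per kb of coding sequence had a Spearman rho of -0.09 across the 59 members with a promoter. A run counted wherever it lay in the window, so these are not shares of genes whose transcripts begin with one. A match is only a description of these letters, since the starts are annotated ones and were not measured in these cells.

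The second feature is sequence shared with other genes. A pair of stretches of 60 coding bases are shown beside the processed pseudogene that holds almost the same bases and has a row of its own in the table. The differing base is in capitals, and the sequences were read from the GENCODE M21 transcripts.
Rpl35, coding bases 110 to 169: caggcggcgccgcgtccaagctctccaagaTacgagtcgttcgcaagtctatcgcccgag
Gm10269, the matching stretch: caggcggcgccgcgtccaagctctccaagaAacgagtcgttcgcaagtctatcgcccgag
Rps28, coding bases 39 to 98: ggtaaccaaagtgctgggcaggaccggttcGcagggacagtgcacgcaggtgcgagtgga
Gm3511, the matching stretch: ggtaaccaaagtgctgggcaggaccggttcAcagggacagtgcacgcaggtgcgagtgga
A read that covers none of the differing bases fits both genes equally well. The sources used here do not say how the authors' counting treated such reads.

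The cells carried macrophage transcripts. Of 16 macrophage markers, all 16 were above 0 in at least 50% of cells, and their sum was 4.67% ± 1.37 of CPM (SD, n = 75). Markers of other cells were less widespread: none of the 4 cardiomyocyte, 2 B cell, 1 T cell, 1 neutrophil and 1 endothelial markers with values reached 50% of cells. No erythroid marker had values, and of the fibroblast list only Gsn, which macrophages can also express, had values, in 40 cells. Ttn and Myh6 were still above 0 in 26 and 22 cells. The highest cell had 3099 CPM of Eng, 2044 of Csf3r and 1351 of Cd79b, respectively for each gene. Whether single libraries held other cells was not tested. Transcriptomes 13 and 19 stood apart as a nearly identical pair, with a Pearson r of 0.978 between their log2(CPM + 1) values against at most 0.421 in the other 2849 pairs. They were counted as 1 cell by their mean, which leaves 75 cells. The estimated depth was 259558 reads in the shallowest library, about 2125170 in the median one and about 6474590 in the deepest. Between 2324 and 4382 genes were above 0.

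Together the 80 members took 0.942% ± 0.357 of a cell's CPM (SD, n = 75). The lowest cell, transcriptome 26, had 0.393%, the median cell 0.922% and the highest, transcriptome 16, 2.22%, a range of 5.66-fold. Of the 75 cells, 49 were under 1% and 2 were at 2% or above. With every library counted as its own cell the mean was 0.938%. The cell with the lowest share also had few genes above 0, 2438, and the cell with the highest share had 4117. Over all 75 cells, however, the share and the number of genes above 0 had a rho of 0.05. The 74 mitochondrial ribosomal protein genes with values, which serve the separate ribosome inside mitochondria, took 0.254% ± 0.118, and the 37 proteasome subunit genes 0.426% ± 0.200.

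**Figure D1:**
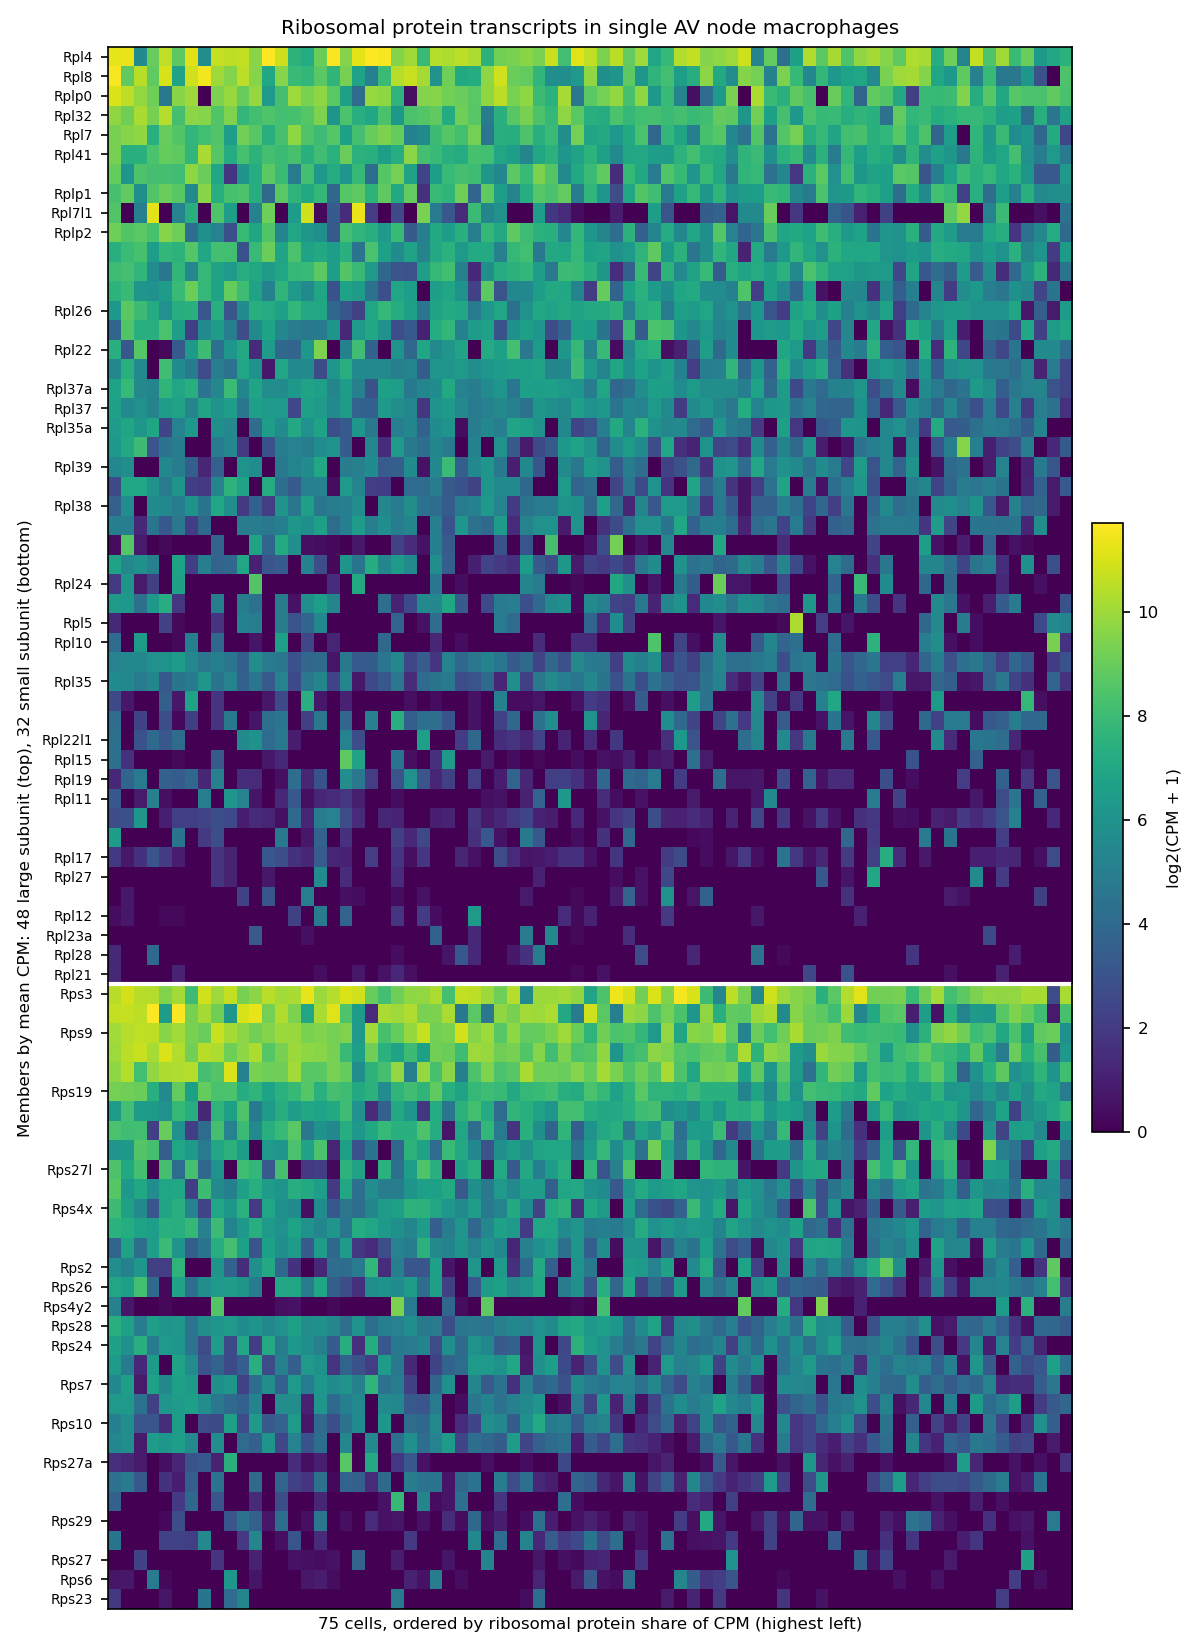
Level of each of the 80 members (rows, by mean CPM within the large subunit above and the small subunit below) in each of 75 cells (columns, by the members' share of CPM, highest on the left), as log2(CPM + 1), with the names of a selection of rows. A few rows such as Rpl4 and Rps3 are bright in nearly every cell, whereas rows such as Rpl21 and Rpl23a are at 0 in most.

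Members were detected in 9 to 75 cells, with no gap between those above and below 50%. Above 0 in at least 50% of cells were 59 of the 80 members (73.8%), against 23.9% of all 9235 genes. At 10 CPM or more in at least 50% of cells were 49 members, against 8.88% of all genes, and above 0 in every cell were 17, against 1.58%. The large subunit had 34 of 48 members above 0 in at least 50% of cells and the small subunit 25 of 32. For comparison, 10 of the 74 mitochondrial ribosomal protein genes and 25 of the 37 proteasome genes passed the same threshold, but only 2 and 4 of them at 10 CPM. After every cell was thinned to 200000 reads, 54 members passed, against 12.2% of all genes.

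At the other end, 6 members were above 0 in under 25% of cells, where 46.6% of all genes lie. They are Rpl27 in 15 cells, Rpl12 in 17, Rpl28 in 15, Rpl21 in 13, Rpl23a in 9 and Rps23 in 14. For Rpl23a the share of cells was 12.0%, with an exact 95% Clopper-Pearson interval from 5.64% to 21.6% that covers the sampling of cells only. Rpl21 never reached 10 CPM, and its highest cell stood at 6.6 CPM. These genes encode core proteins of the large subunit, except Rps23, whose product lies near the decoding centre of the small subunit. Every one of the 6 shared all of its coding 50-base stretches with other annotated genes, as did 28 of the 79 members with an annotated coding sequence.

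The summed levels of the subunits were nearly equal on average. The 48 large subunit genes summed to 4728 ± 2072 CPM per cell (lowest 1276, median 4366, highest 13303) and the 32 small subunit genes to 4695 ± 1870 CPM (lowest 1664, median 4517, highest 10273). The mean log2 ratio of large over small was -0.0083 ± 0.53 (SD, n = 75). The large sum was higher in 34 cells and the small sum in 41. Single cells departed from equality in both directions: 4 cells lay more than 2-fold to the large side, up to a log2 ratio of 1.41 in transcriptome 84, and 1 more than 2-fold to the small side, transcriptome 35 at -1.26. The large and small sums had a rho of 0.607 over cells, which share depth and library composition.

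**Figure D2:**
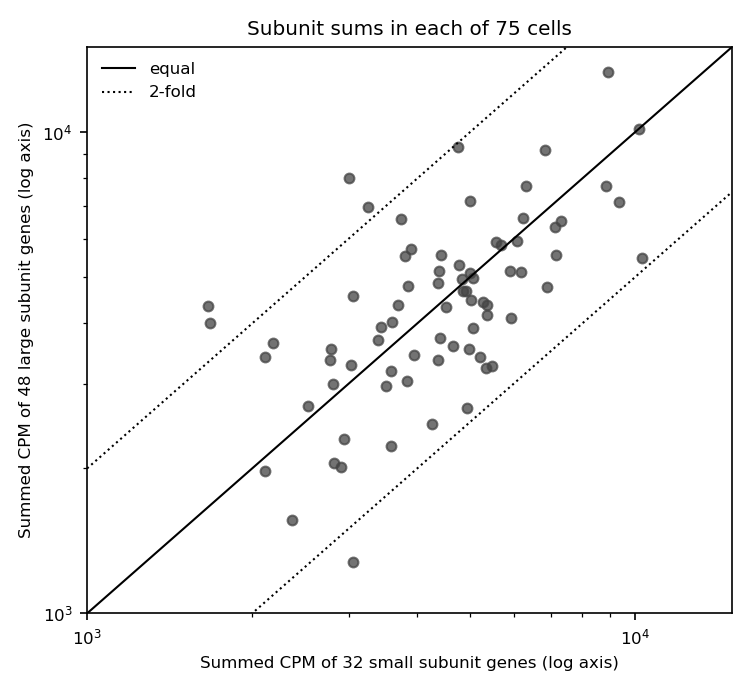
Summed CPM of the 48 large subunit genes against that of the 32 small subunit genes in each of 75 cells (points), both axes logarithmic. The solid line marks equality, with 34 cells above it and 41 below, and the dotted lines mark 2-fold, with 4 cells beyond them on the large side and 1 on the small side.

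Per gene, the small subunit stood higher. The mean over members of CPM per kb of coding sequence was 288 ± 119 for the small and 212 ± 100 for the large subunit (SD over 75 cells), and the small subunit was higher in 65 of 75 cells, with a mean log2 ratio of -0.47 ± 0.48 for large over small. The large sum is spread over more genes, so a sum and a mean per gene answer different questions. The level of the median member also differed, with 15.0 CPM for the large and 24.4 CPM for the small subunit in the median cell, and the small subunit was higher in 61 cells. The share of coding sequence not found in other genes differed too: its median was 7.62% over large and 12.3% over small subunit members. Its part in the difference was not tested. Among members with under 10% of such sequence the medians were 22.5 CPM per coding kb over 27 large and 27.7 over 14 small members. Among those with 10% to 50% they were 211 over 15 large and 142 over 10 small members, and above that 504 over 6 large and 1022 over 7 small. The small subunit was thus not higher in the middle class. Restricted to the 13 members of the last class, the summed log2 ratio was -0.56 ± 0.97, with the small sum higher in 58 of 75 cells.

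A few members held most of the signal. Without division by length, the 2 most abundant members held 21.5% of the members' CPM, the first 3 held 28.9% and the first 10 held 63.8%. Rps3 was the member with the largest share in 22 cells and Rpl4 in 21, and Rpl8 in 6 and Rps9 in 5 were among the others. Rps3, a small subunit protein at the channel where messenger RNA enters and also a DNA repair endonuclease, had 5.4 CPM in its lowest cell, 966 in the median and 2998 in the highest, with a mean of 1026 ± 666. Rpl4, which lines the exit tunnel of the nascent chain, had 18.4, 789 and 3320 CPM, with a mean of 1005 ± 833. Both were above 0 in all 75 cells.

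Per kb of coding sequence, Rpl41 stood highest at 2671 ± 2406, followed by Rps3 at 1407 ± 913. Also among the first 10 were Rps14 at 1243, Rps9 at 1102, Rpl32 at 816, Rpl4 at 799, Rpl8 at 682 and Rplp1 at 574. Rpl41 encodes the smallest ribosomal protein, and its place rests on a coding sequence of only 75 bases in reads that cover the whole transcript. The lowest of the 79 members with an annotated coding sequence was Rpl21 at 0.542 ± 2.00, below Rpl23a at 2.85, Rpl28 at 2.92, Rpl12 at 3.60 and Rps6 at 4.07. The highest and lowest means lay 4932-fold apart. Neighbours in this order lay close together beside the spread between cells. In 76 of the 78 adjacent pairs the means differed by less than the smaller of the standard deviations over cells. Only Rpl41 over Rps3 and Rpl23a over Rpl21 differed by more. This SD describes the cells and not the error of a mean, so whether neighbours can be ranked was not tested.

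By role, the stalk of the large subunit, which recruits the translational GTPases, was uneven. Rplp0, which anchors the stalk, had 0 to 2083 CPM with a median of 403 and was above 0 in 72 cells. Its partners Rplp1 and Rplp2 were above 0 in all 75 cells, at 2.1 to 775 and 2.4 to 760 CPM. Per coding kb the stalk proteins stood at 503 (Rplp0), 574 (Rplp1) and 417 (Rplp2), less than their spread apart. Rpl12, which sits at the base of the stalk, was above 0 in 17 cells at a mean of 1.78 ± 9.38 CPM, or 3.60 per coding kb.

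Rpl5 and Rpl11 bind 5S ribosomal RNA and, when free of ribosomes, restrain Mdm2, the ubiquitin ligase of p53. Neither was above 0 in 50% of cells. Rpl11 was above 0 in 33 cells, at up to 73.6 CPM. Rpl5 was above 0 in 31 cells at a mean of 22.7 ± 140 CPM, but 71.2% of its CPM came from transcriptome 28, at 1214, and without that cell the mean was 6.62 CPM. In all, 6 members had at least 50% of their CPM in 1 cell, among them Rpl5, Rpl15, Rpl12 and Rpl17. How many of all genes did so was not counted, so this number has no background beside it. These 6 shared all of their coding stretches with other genes, as did 28 of the 79 members with an annotated coding sequence.

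Around the exit of the peptide tunnel, where the signal recognition particle docks, 6 of 8 members were above 0 in at least 50% of cells. This is 75.0%, near the 73.8% of all members, against 23.9% of all genes. Rpl26 was above 0 in every cell, at 0.7 to 416 CPM with a median of 85.5, and Rpl22 in 64 cells, at up to 688 CPM. Rpl35 was above 0 in 72 cells, Rpl39 in 64, Rpl17 in 51 and Rpl19 in 50. Rpl31 was above 0 in 20 cells and Rpl23a in 9.

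At the entry of messenger RNA into the small subunit all 3 members were above 0 in at least 50% of cells: Rps3 and Rps9 in all 75 and Rps2 in 58. The share that passed was 73.8% over all members and 23.9% over all genes. Rps9 was among the steadiest members, at 36.9 to 1977 CPM with a median of 575. Of the head of the small subunit 11 of 13 members with values (84.6%) passed, beside the same 73.8% and 23.9%. Rps19 ranged from 29.2 to 600 CPM with a median of 173, and had the lowest ratio of SD to mean of all 80 members, 0.644. Rps27a, which is made as a fusion with ubiquitin, did not pass, at 37 cells.

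Of 11 members whose human counterparts are mutated in Diamond-Blackfan anaemia, a failure of red cell formation, 7 (63.6%) were above 0 in at least 50% of cells, against 73.8% of all members and 23.9% of all genes. They are Rps19 and Rpl26 in every cell, Rps24 and Rps7 in 70 and 67, Rps26 in 69, Rpl35a in 66 and Rps10 in 62. Rpl11, Rpl5 and Rpl15 were among those that were not, the last of them in 26 cells.

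Paralogues were compared with their better known partners. Rps27l, a p53 target in other cells, was above 0 in 57 cells at 97.6 ± 111 CPM, or 387 per coding kb. Its partner Rps27 was above 0 in 23 cells at 3.27 ± 14.3 CPM, or 13.0 per coding kb. The coding sequences differ in how much of them other genes share: 51.7% of the stretches of Rps27l were in no other gene, against 0% for Rps27, and the part of this in the difference was not tested. Rpl7l1, a pre-ribosome protein, was above 0 in 48 cells and at 10 CPM or more in 29, with a median of 2.7 CPM and a highest cell of 2580, whereas Rpl7 was above 0 in 74 cells with a median of 212. Their means per coding kb, 219 ± 637 and 322 ± 258, differed by less than either SD. Rpl22l1 stood at 27.3 CPM per coding kb and Rpl22 at 191. The row Rps4y2, whose current entry is annotated as a processed pseudogene with no coding sequence, was above 0 in 22 cells at up to 691 CPM, against 70 cells for Rps4x.

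How much of a member's coding sequence was its own moved with its level across genes. Each coding sequence was divided into all of its overlapping 50-base stretches, and each stretch was looked for in every other annotated gene. The median member had 9.74% of its stretches in no other gene, 41 of 79 had under 10%, 28 had none and 1 had 100%. The 74 mitochondrial ribosomal and the 37 proteasome genes both had a median of 100%, with 2 and 0 genes under 10%. The unshared percentage and the mean CPM per coding kb had a rho of 0.804 across the 79 members. Over whole transcripts, which these reads cover, the unshared percentage and the mean CPM per transcript kb had a lower rho, 0.492. With the level taken per kb of transcript found in no other gene, its rho with the unshared transcript percentage was 0.1004. That percentage is also in the divisor of this level, which pulls the rho down by construction. This last value therefore cannot be set beside the rho of 0.492. The size of the link differed between coding sequence and whole transcripts. All of these genes were read in the same libraries, and genes are not independent replicates.

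In levels, the 28 members with no stretch of their own had a median of 12.8 CPM per coding kb and held 5.27% of the members' CPM. The 13 with up to 10% had a median of 46.4, the 25 with 10% to 50% one of 183, and the 13 above that one of 682. These last 13 held 57.3% of the members' CPM. Rps3, Rpl8 and Rpl4 had 91.9%, 91.3% and 79.7% of their stretches to themselves. There were exceptions: Rpl41 led the order with none, and Rps28 and Rpl38 reached 212 and 141 CPM per coding kb with none. In the other direction, Rpl22 and Rpl7l1 stayed at 191 and 219 with 69.0% and 78.1%. Coding length itself had a rho of -0.08 with the level. The median ratio of SD to mean fell in the same order only in part, from 3.52 in the class with none through 1.24 and 0.900 to 1.02. Whether shared sequence set these levels was not tested.

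**Figure D3:**
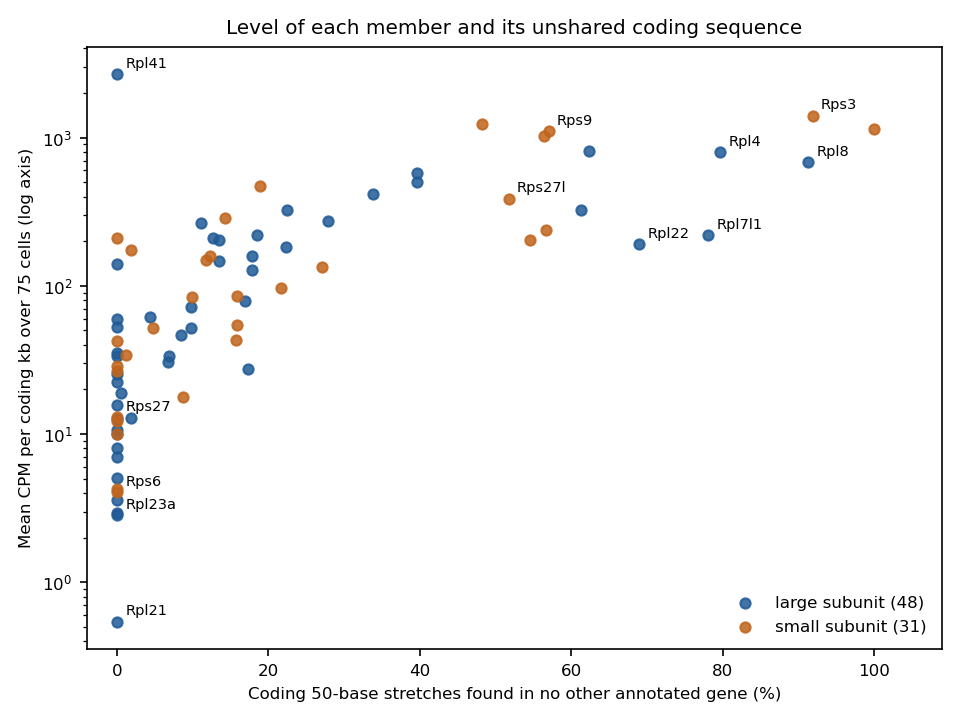
Mean CPM per kb of coding sequence over 75 cells (logarithmic axis) against the percentage of coding 50-base stretches found in no other annotated gene, for 48 large and 31 small subunit members (points). Members to the right, such as Rps3 and Rpl8, are high, those at 0% run from Rpl21 to Rpl41, and the rho across the 79 genes is 0.804. With percentage and level both taken over whole transcripts, not drawn here, the rho is 0.492.

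Rows of other genes that share sequence with members also carried signal. In the table, 163 further rows, 152 of them pseudogenes, shared at least 50 stretches of 50 bases, counted over the whole transcript, with 1 of 61 members. They took 0.0529% ± 0.0514 of a cell's CPM, little beside the 0.942% of the members, and members and rows together came to 0.995%. For 9 members, however, the rows summed to more CPM than the member, without division by length. Rpl21 had 0.260 CPM and its 16 rows 105 CPM, of which BC004004, a row annotated as protein-coding, had 74.0 and Rpl21-ps1 27.8. They were above 0 in 31 and 10 cells. The row Rpl19-ps7, named as a copy of Rpl19, was not among the 163 rows. Its mean was 31.6 CPM, against 6.26 for Rpl19.

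Gm10269 and Rpl35, whose stretches are shown above, moved together. Gm10269 had 0 to 190.5 CPM with a median of 42.4 and was above 0 in 73 cells. Rpl35 had 0 to 69.8 CPM with a median of 12.3 and was above 0 in 72. The pseudogene row was the higher in 71 of 75 cells, and the rho between the rows was 0.877. Gm3511 had a median of 60.6 CPM and Rps28 one of 32.9, with Gm3511 higher in 57 cells and a rho of 0.705. Which of the genes the reads came from cannot be told apart in this table.

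**Figure D4:**
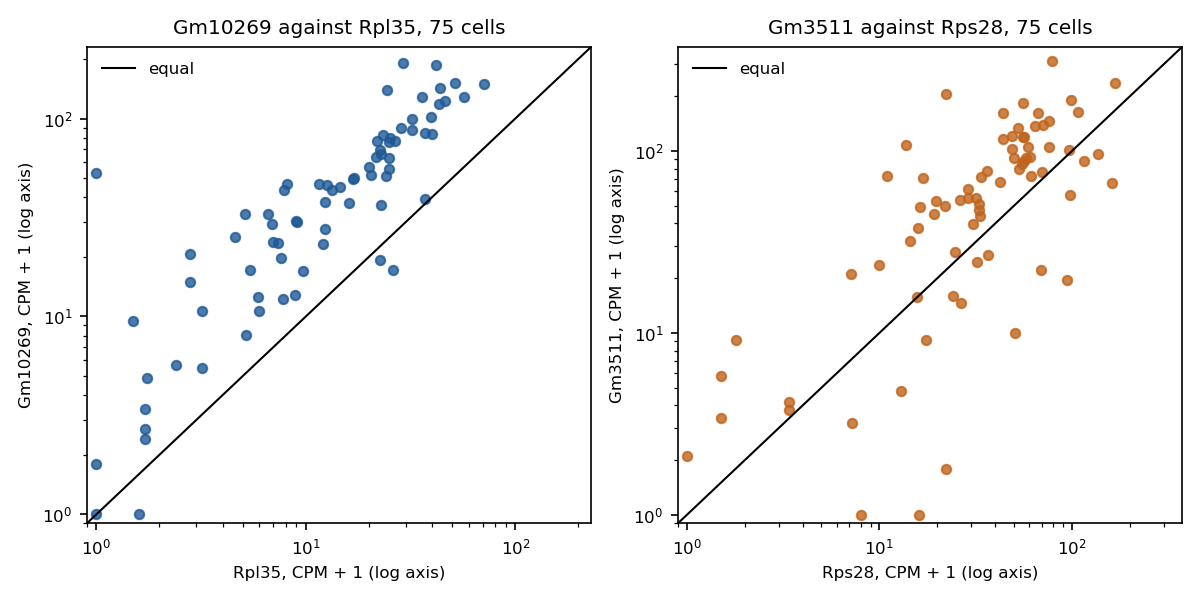
CPM + 1 of a pseudogene row against that of the member it resembles in each of 75 cells (points), Gm10269 with Rpl35 on the left and Gm3511 with Rps28 on the right, all axes logarithmic. The line marks equality, and 71 and 57 of the 75 points lie above it.

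Over cells, members moved together weakly. The median rho between 2 members was 0.0988 over 3160 pairs of genes, 0.0848 within the large subunit, 0.107 within the small and 0.103 between them. Pairs within a subunit and across subunits thus had like medians. Beside the 0.0988 of all members, the median was 0.0648 among proteasome and 0.0233 among mitochondrial ribosomal genes, which were detected in fewer cells. Among the 49 members at 10 CPM in at least 50% of cells it was 0.149, and among the other members 0.0561. The proteasome and mitochondrial lists were not filtered in this way. A score averaged over large subunit members and one over small subunit members had a rho of 0.763 over cells, and 0.734 with the number of genes above 0 removed from the ranks of both.

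Among the 5 members closest to the rest were Rpl37a (rho of 0.572 with the other members), Rps19 (0.569), Rpl35 (0.544) and Rps9 (0.510). Rpl37a and Rpl37 were among the most alike pairs, at 0.523. The most abundant genes were not the closest: Rps3 had a rho of 0.0488 and Rpl4 one of 0.110 although both were above 0 in every cell. Rps4y2 at -0.0145, Rpl10 at -0.0112, Rps29 at 0.0533 and Rpl24 at 0.0643 completed the lowest 5 with Rps3.

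Among 4662 other genes above 0 in at least 20 cells, those most like the score of the members were Gm2000, with a rho of 0.554, Gm4987 (0.522), Gm10269 (0.511), Asap1 (0.507) and 1810035l17rik (0.502). Of the first 10, 5 shared stretches with a member, against 1.57% of the ranked genes. Rpl19-ps7 (0.489), also among them, is named as a copy of Rpl19 but was not counted as sharing. The actin-binding peptide gene Tmsb4x (0.448) and Atp5e, a subunit of ATP synthase (0.435), were among the highest that shared none. At the low end stood Abcc5 at -0.503, a transporter, the transcription factors Tcf4 at -0.399, Nfia at -0.365 and Klf2 at -0.349, and Tlr2 at -0.384, a receptor for bacterial lipoproteins. These are extremes of a ranking over 75 cells and are given as a description.

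Of the wider translation machinery, 7 of 8 genes of the elongation factor list were above 0 in at least 50% of cells, against 23.9% of all genes as the background. So were 21 of 29 initiation factors and 7 of 9 factors that meet the nascent chain. The elongation factor list includes Tpt1, in 68 cells, and Eef1e1, in 14, which are not themselves elongation factors. Of the ribosome biogenesis genes 6 of 31 (19.4%) passed, near that background, and of the genes of mTORC1 and translation control 1 of 15. The 1 gene was Rps6ka1, in 45 cells, whereas Mtor was above 0 in 14 and Rptor in 11. The mTORC1 and translation control list also holds Tsc1, Tsc2, Eif4ebp1, Myc and Max, so its score does not measure mTORC1 activity. Eef1a1, which brings aminoacyl-tRNA to the ribosome, had 1357 ± 769 CPM and was at 10 CPM or more in all 75 cells. Eef2, which drives translocation, had 796 ± 1229 CPM. Of the biogenesis genes, the nucleolar proteins Ncl and Npm1 were above 0 in 68 and 69 cells, and Fbl, the methyltransferase of ribosomal RNA, in 6. Gnb2l1, which encodes Rack1 on the head of the small subunit and falls outside the naming rule, was above 0 in all 75 cells at 768 ± 812 CPM. Fau, which is made as a fusion with a ubiquitin-like protein, was above 0 in 35 cells. The members' score had a rho of 0.452 with that of the elongation factor list and 0.364 with the initiation factors. It was 0.358 with the mTORC1 and translation control list, 0.216 with the biogenesis genes and 0.177 with the nascent chain factors. It was 0.356 with the proteasome genes and 0.347 with the number of genes above 0 in the cell. With that number removed from the ranks, the rho was 0.364 for the elongation factor list and 0.242 for initiation. It was 0.267 for the mTORC1 and translation control list, 0.0935 for biogenesis, 0.139 for nascent chain factors and 0.201 for the proteasome.

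Within macrophages, the members' score had a rho of 0.110 with MHC class II genes, -0.21 with tissue-resident genes, 0.242 with monocyte-derived genes and 0.0831 with immediate early genes over the 75 cells. All 4 are weak, and in sparse values such as these they are given only as a description.

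Many members also carry a gene for a small nucleolar RNA inside them in the GENCODE M21 annotation, a class of RNA that guides the modification of ribosomal RNA. This held for 29 of 79 members (36.7%), 20 of 48 large and 9 of 31 small, against 2.14% of 7628 coding genes of the table. Rpl4 holds 5, Rpl13a holds 4 and Rps3 holds 2. The median level was 59.6 CPM per coding kb with such a gene and 91.1 without, beside an SD of 2.51 of the log2 level across members.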

How the data were processed

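Per the labels' protocols, single sorted macrophages were captured on a Fluidigm C1 chip and sequencing libraries were built with Nextera XT from cDNA that the SMARTer kit made on the chip. This chemistry reads whole transcripts without strand or molecular identifiers, so antisense reads and amplified copies were not told apart. The authors deposited CPM rounded to 1 decimal, in which every gene is above 0 in at least 6 libraries. Tools and build named in the submitters' processing notes are HTSeq 0.6.0, STAR 2.3.0 and mm9. The annotation and the treatment of reads with several matches are not given in the sources used here.

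Depth was estimated from the step between low CPM values, and all 7 simulated libraries were recovered within 5%. Correlations are Spearman's over log2(CPM + 1), and scores average the standardised values of genes above 0 in at least 8 cells. The correlation code was also tested on simulated data. Coding lengths and shared 50-base stretches came from GENCODE M21 on GRCm38, another build than the table's, so no mm9 coordinates are given and those of the promoters are RefSeq's on GRCm38.p6. Python 3.11.15, numpy 2.4.6, pandas 2.3.3, scipy 1.17.1 and matplotlib 3.10.9 were used. All cells were kept, with no doublet caller run. No test was made, since the cells form 1 sample.

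The members and lists were chosen with earlier results of these data known. The named genes are all members of the role, Diamond-Blackfan and paralogue lists, the highest and lowest members by level, by ratio of SD to mean and by correlation, every member above 0 in under 25% of cells, and the 10 other genes most and least like the score, of which a selection is printed. Rpl38, Rps28, Rpl13a and the genes of the other lists were chosen for naming once their values had been seen. The design foresaw 76 cells with near-identical libraries counted as 1. The alternatives were every library as its own cell, cells with more genes, thinning, pseudocounts, filters on low values, other lengths and other sets of members. Results of some single genes are not reported here, and they remain in the counts.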

Additional observations from a re-analysis of the deposited data

How the results depend on the processing

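Of 72 alternative values, 70 moved by less than a spread or, for counts, stayed within 1.5 times. The spread was over cells for the share, the ratio and single-gene means, and over pairs of genes for the correlation of members. For the score it was the SD over members of their rho with the number of genes above 0. These spreads are wide, and many of the 72 were means of single genes. A pseudocount cannot change a rank correlation between members, so those values had to stay the same. The tally is therefore not evidence of stability. The share of CPM was 0.505% without the 3 highest members of each subunit, against 0.942%. The log2 ratio of large over small sums was -0.56 when only the 13 members with at least 50% of coding stretches in no other gene were kept, an alternative chosen after seeing the data, against -0.0083. Its sign was not stable either: it was 0.16 with sums per coding kb, with the large sum higher in 46 cells, and 0.24 without the 3 highest members of each subunit. The ratio over members with no shared stretch anywhere was not run, since it would have compared 0 large with 1 small member. The 10 highest members kept 8 to 10 of their number under each length and summary. The cause of these shifts was not tested. Depth limits the detection of low members: 59 were above 0 in at least 50% of cells, 54 after thinning and 62 in the 56 cells with more genes. No comparison between groups, paired or not, was possible because there is 1 group, whereas the subunits were compared within each cell.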
